A study of Homo sapiens with 9 samples.

Results

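PTGS2, the inducible cyclooxygenase, stood higher in MCF10A-YAP cells that carried either of the sgRNAs against TRAM2 than in cells with a non-targeting sgRNA. Described here are PTGS2 and the other enzymes, the exporter and the receptors of the prostaglandin E2 (PGE2) route, 10 genes in all: PLA2G4A, PTGS1, PTGS2, PTGES, PTGES2, PTGES3, ABCC4, HPGD, PTGER2 and PTGER4. They were chosen by name out of 59293 genes, with earlier results of these data known. Of the 10, 9 were among the 15139 genes with enough reads to be tested. PTGS2 was put at the head of the group because its level was already known to differ in these libraries, so its values are given as a description, without a test. Poly(A) RNA had been sequenced in 9 libraries of MCF10A-YAP cells, in 3 groups of 3 (letters A, B and C). MCF10A cells are human breast epithelial cells that were immortalised without becoming tumorigenic, and the MCF10A-YAP line overexpresses a constitutively active YAP, the transcriptional coactivator at the end of the Hippo pathway. All 3 groups thus carried active YAP, and all were grown with EGF, insulin, hydrocortisone and horse serum. The groups differed in the sgRNA vector they had been transduced with: a non-targeting control sgRNA, TRAM2-KO1 or TRAM2-KO2. Cells were selected with antibiotic and used as a population, so a library can mix edited and unedited cells, and fewer expressing cells cannot be told apart from less RNA per cell. The series design text names overexpression of TRAM2 and of YAP instead, against the title and the sample labels, and groups were taken from the labels.

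Prostaglandins are made from arachidonate. Cytosolic phospholipase A2 (PLA2G4A) releases this fatty acid from membrane phospholipids, and the cyclooxygenases PTGS1 and PTGS2 turn it into prostaglandin H2. The PGE synthases PTGES, PTGES2 and PTGES3 make PGE2 from it. ABCC4 pumps PGE2 out of the cell, HPGD inactivates it, and the receptors PTGER2 and PTGER4 answer it by raising cAMP. PTGS1 is the constitutive cyclooxygenase, while PTGS2 is a short-lived mRNA that growth factors, cytokines and stress induce in epithelia. PTGS2 and PTGES often rise together in inflamed and transformed epithelium.

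Each library held 21.7 to 27.6 M estimated reads. TRAM2, a component of the translocon through which secreted proteins enter the endoplasmic reticulum, stood at 464 to 481 CPM (reads scaled to library size) in controls, 203 to 219 CPM in TRAM2-KO1 and 210 to 216 CPM in TRAM2-KO2, so all 6 knockout libraries lay below all 3 controls. Of 8 basal epithelial markers, 7 passed the read filter, but TP63, which defines basal cells, stayed under 1 CPM in every library. The summed level of those markers was 3212 to 3340 CPM in controls, 2950 to 3164 CPM in TRAM2-KO1 and 3527 to 3609 CPM in TRAM2-KO2, so these sums moved with the groups. Luminal markers summed to 802 to 838 CPM in controls, 807 to 856 CPM in TRAM2-KO1 and 859 to 910 CPM in TRAM2-KO2, above all the others. Of the 6 luminal markers, PGR was at 0 and KRT19 under 1 CPM in every library. YAP1 and 4 of its target genes summed to 2121 to 2175 CPM in controls, 2190 to 2213 CPM in TRAM2-KO1 and 2068 to 2116 CPM in TRAM2-KO2, groups that did not overlap. The part of these sums in the results below was not tested. The 6 fibroblast markers summed to 1.39 to 2.17 CPM and the 5 leukocyte markers to 0.195 to 0.735 CPM, with CD3E at 0. Libraries B and C of TRAM2-KO1 stood apart in GC content. Their deviations from the mean of all libraries correlated negatively with the GC content of genes (Spearman rho -0.528 and -0.359, across genes, which are not independent), against 0.181 in TRAM2-KO1 A and 0.145 to 0.253 in controls. For the libraries of TRAM2-KO2 rho was 0.395 (A), 0.169 (B) and -0.0898 (C).

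The promoters of PTGS2 and of the 2 members whose mRNA passed the test below, PTGES and PTGER4, are shown because these genes stood higher together in TRAM2-KO2. Each sequence is the 250 bases before the start of the RefSeq gene on its own strand, on GRCh38.p14: chr1:186680424-186680673 (minus strand) for PTGS2, chr9:129753043-129753292 (minus strand) for PTGES and chr5:40679665-40679914 (plus strand) for PTGER4. Capitals mark matches, on either strand, to the letters searched: TATAAA (the box bound by TBP), TGACG (cAMP response element core), TTNCGCAA (C/EBP), GGGNNNNNCC (NF-kB), TGANTCA (AP-1), GGAATG (TEAD) and GGGCGG (SP1).
PTGS2: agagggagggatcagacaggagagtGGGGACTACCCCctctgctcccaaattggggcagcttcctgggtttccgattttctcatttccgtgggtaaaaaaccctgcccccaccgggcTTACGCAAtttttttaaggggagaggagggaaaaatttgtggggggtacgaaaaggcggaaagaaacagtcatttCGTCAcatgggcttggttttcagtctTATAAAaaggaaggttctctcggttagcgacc
PTGES: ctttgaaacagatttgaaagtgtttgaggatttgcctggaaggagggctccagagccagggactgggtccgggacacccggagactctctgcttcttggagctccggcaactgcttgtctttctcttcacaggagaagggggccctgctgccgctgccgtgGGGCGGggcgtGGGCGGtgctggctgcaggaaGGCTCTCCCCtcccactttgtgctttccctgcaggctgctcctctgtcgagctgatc
PTGER4: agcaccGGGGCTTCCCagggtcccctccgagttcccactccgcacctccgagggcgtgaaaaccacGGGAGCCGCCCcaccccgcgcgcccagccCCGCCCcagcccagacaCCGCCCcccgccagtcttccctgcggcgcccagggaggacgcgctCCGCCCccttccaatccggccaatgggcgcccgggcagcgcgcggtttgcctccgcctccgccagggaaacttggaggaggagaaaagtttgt
The PTGS2 window held TATAAA 32 bases before the start, a cAMP response element core on the minus strand at 58 bases and a C/EBP match at 133 bases. Its NF-kB letters matched in overlapping frames on both strands from 225 bases before the start. PTGES had 2 SP1 matches, at 89 and 78 bases, and an NF-kB match at 57 bases. PTGER4 had 4 SP1 matches and NF-kB matches at 244 and 184 bases, and the SP1 match at 179 bases overlaps the latter. AP-1 and TEAD letters did not occur in these 3 windows. Of 35116 promoter windows of the same length, 0.752% held the C/EBP letters, 10.7% the TBP box, 21.2% the cAMP element core, 54.4% the NF-kB letters, 42.6% the SP1 letters, 6.57% the AP-1 letters and 11.9% the TEAD letters. A match describes letters and does not show binding.

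The first question was how the mRNA of the arachidonate-releasing enzyme and of the cyclooxygenases compared between the groups. PTGS2 (ENSG00000073756, GRCh37 chromosome 1, 186640923 to 186650054, minus strand) reached 26.4, 27.8 and 23.1 CPM in the control libraries A, B and C. In TRAM2-KO1 it stood at 32.6, 36.2 and 37.2 CPM, and in TRAM2-KO2 at 50.6, 50.5 and 52.9 CPM. The 3 groups did not overlap: every TRAM2-KO1 library was above every control, and every TRAM2-KO2 library above every TRAM2-KO1 library. Behind these levels were 564 to 679 reads in each control library, 783 to 957 in TRAM2-KO1 and 1277 to 1450 in TRAM2-KO2. Group means were 25.8 ± 2.43, 35.4 ± 2.41 and 51.3 ± 1.36 CPM (SD, n = 3). PTGS2 was therefore 1.37-fold the control level with TRAM2-KO1 (95% interval 1.23 to 1.53) and 1.99-fold with TRAM2-KO2 (1.79 to 2.22), or 0.45 (SE 0.0718) and 0.99 (SE 0.0702) on the log2 scale. The guides differed by 0.54 on the log2 scale (SE 0.0683, interval 0.39 to 0.69). With transcript length offsets the TRAM2-KO1 value was 0.35, and with library A standing alone for TRAM2-KO1 it was 0.34. PTGS2 has a GC content of 38.0%, and TRAM2-KO1 B and C are the libraries with the most negative GC trend. With that trend removed PTGS2 kept its direction. TRAM2 itself stood at nearly the same level with both guides (difference 0.01, SE 0.0327, interval -0.06 to 0.08).

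**Figure D1:**
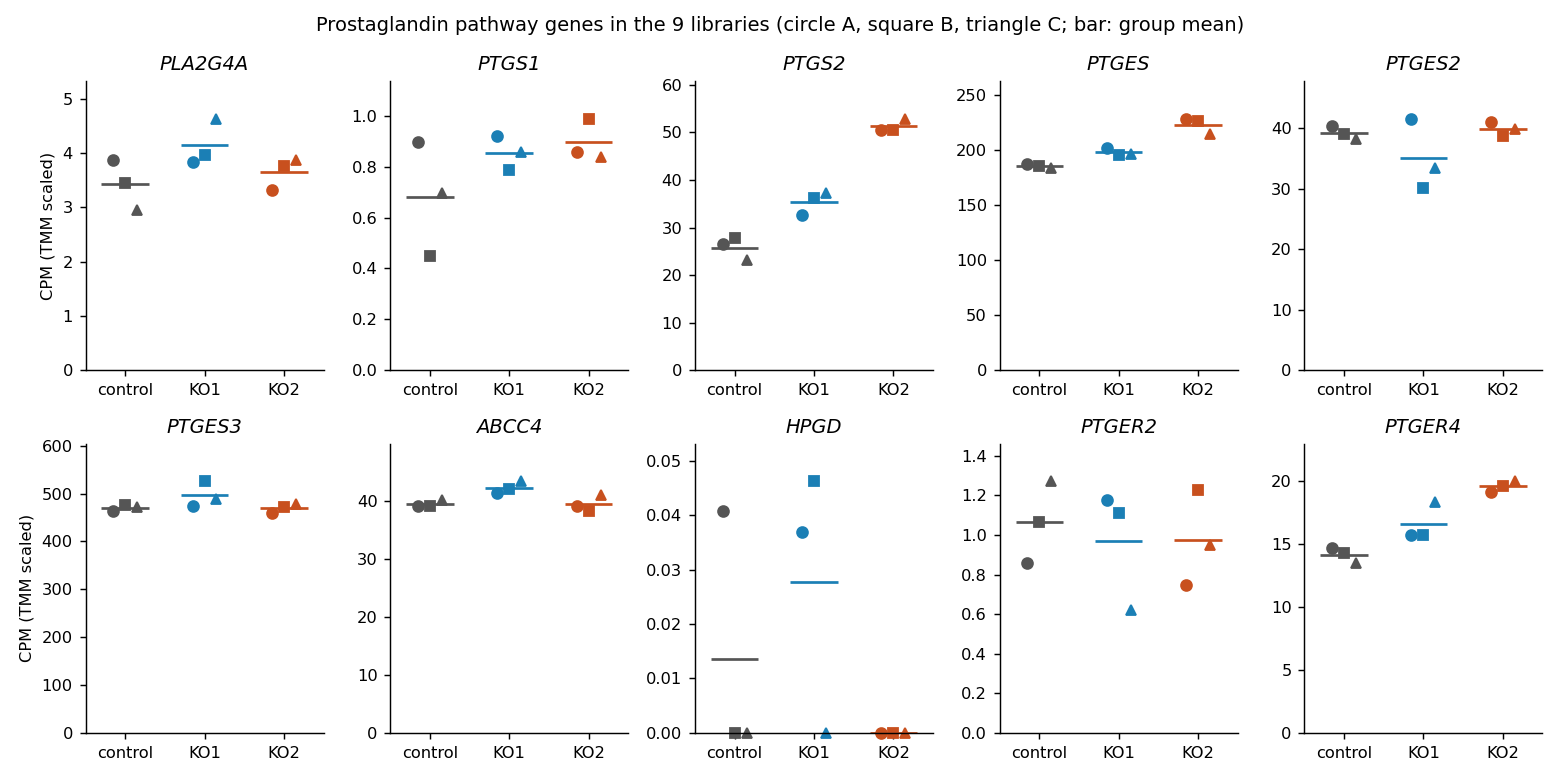
CPM of the 10 genes (vertical axes start at 0) in each library, grouped by control, TRAM2-KO1 and TRAM2-KO2, with circles, squares and triangles for libraries A, B and C and bars for group means. PTGS2 steps up from 23.1 to 27.8 CPM in controls to 50.5 to 52.9 CPM in TRAM2-KO2, PTGES and PTGER4 follow with smaller steps, and HPGD lies at 0 or 1 read.

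Reads of PTGS2 were divided by Salmon among 3 main transcripts. The coding transcript PTGS2-201 (4510 nt) took 79.0% ± 2.25 of the gene's reads in controls (SD, n = 3), 81.2% ± 3.21 in TRAM2-KO1 and 79.6% ± 2.40 in TRAM2-KO2. Its own level ran from 18.8 to 21.5 CPM in controls, from 26.1 to 30.7 CPM in TRAM2-KO1 and from 40.2 to 41.4 CPM in TRAM2-KO2. The coding transcript thus stepped up in the same order as the gene, with no overlap between the groups. PTGS2-204 (1705 nt), annotated as a target of nonsense-mediated decay, took 19.8% ± 2.72, 16.01% ± 3.73 and 17.3% ± 3.90. PTGS2-203, which retains an intron, took 0.561% ± 0.497, 2.51% ± 1.38 and 2.62% ± 2.24, shares whose spread is as large as the differences in TRAM2-KO2. PACERR, a noncoding RNA on the other strand, had 1 to 3 reads per library. It overlaps the start of the PTGS2 gene by 321 bases as GENCODE bounds it. That start need not be the RefSeq start used for the promoter above. The labels and the methods of the study name different versions of the library kit, so whether strands were kept is unsettled, and reads of the overlap could belong to either gene.

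**Figure D2:**
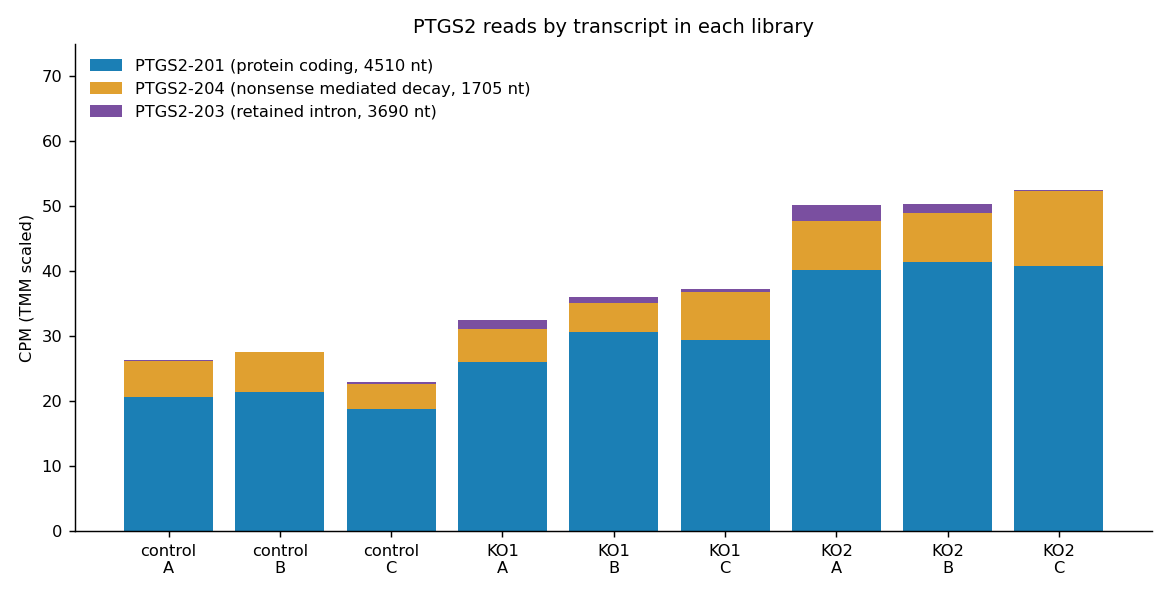
Stacked bars of PTGS2 reads by transcript in the 9 libraries, in CPM (vertical axis from 0). The coding transcript PTGS2-201 makes up most of each bar and rises from 18.8 to 21.5 CPM in controls to 40.2 to 41.4 CPM in TRAM2-KO2.

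PTGS1, the constitutive cyclooxygenase (chromosome 9, 125132809 to 125157982), was near the limit of detection with 11 to 25 reads per library. Its controls held 0.898, 0.451 and 0.697 CPM, against 0.921, 0.785 and 0.856 CPM in TRAM2-KO1 and 0.859, 0.989 and 0.839 CPM in TRAM2-KO2. The groups overlapped, and the fitted differences were 0.33 (interval -0.27 to 0.92) and 0.39 (interval -0.20 to 0.98) on the log2 scale, neither of which passed the test (edgeR, adjusted p = 0.561 and 0.582). Per length, in Salmon's TPM, PTGS2 stood at 33.8 to 40.0 times PTGS1 in controls, 37.2 to 47.6 times in TRAM2-KO1 and 44.7 to 64.1 times in TRAM2-KO2. PLA2G4A (chromosome 1, 186798081 to 186958113) lies 148 kb from PTGS2 with 0 protein-coding genes between them. It stood at 3.88, 3.44 and 2.95 CPM in controls, at 3.83, 3.97 and 4.63 CPM in TRAM2-KO1 and at 3.32, 3.76 and 3.87 CPM in TRAM2-KO2. These groups overlapped as well, and its differences of 0.28 (SE 0.135, adjusted p = 0.306) and 0.09 (SE 0.136, adjusted p = 0.861) did not pass.

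Of the PGE synthases, PTGES rose with TRAM2-KO2. PTGES (ENSG00000148344, chromosome 9, 132500610 to 132515321), the inducible microsomal PGE synthase, measured 187, 185 and 184 CPM in the controls. It stood at 202, 195 and 196 CPM in TRAM2-KO1 and at 228, 226 and 214 CPM in TRAM2-KO2. Again the groups did not overlap and stood in the order of control, TRAM2-KO1 and TRAM2-KO2. Its log2 fold change was 0.26 with TRAM2-KO2 (SE 0.0316, interval 0.19 to 0.33, edgeR adjusted p = 0.000908), a rise of 20.1%, and it passed in all 21 alternative settings tried, each a change of test, scaling, filter or libraries. With TRAM2-KO1 the difference was 0.09 (SE 0.0317, adjusted p = 0.167). PTGES was higher in TRAM2-KO2 than in TRAM2-KO1 by 0.17 (SE 0.0315, adjusted p = 0.0223), a call that held in 13 of 21 settings and was lost without TRAM2-KO1 C (adjusted p = 0.0706), TRAM2-KO2 A (0.0962) or TRAM2-KO2 B (0.0861). Its GC content of 56.9% is high, and after removal of the GC trends the TRAM2-KO1 difference was 0.16 (adjusted p = 0.00446) and the difference between the guides 0.11 (adjusted p = 0.0508).

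PTGES2, a second membrane-bound synthase (chromosome 9, 130882972 to 130890741), stood at 40.3, 39.0 and 38.2 CPM in controls and at 41.0, 38.7 and 39.8 CPM in TRAM2-KO2. In TRAM2-KO1 library A held 41.5 CPM, while B and C held 30.02 and 33.4 CPM. The difference of -0.16 (SE 0.0945) did not pass (adjusted p = 0.402), and without TRAM2-KO1 A it became -0.30 (adjusted p = 0.00888). PTGES2 has a GC content of 59.2%, B and C are the libraries with the most negative GC trend, and with that trend removed the difference was -0.05. PTGES3, the cytosolic synthase that also serves as the HSP90 cochaperone p23, was the most abundant member in reads, at 460 to 525 CPM over the 9 libraries. Its differences were 0.08 (interval -0.01 to 0.16) with TRAM2-KO1 and -0.00 (interval -0.08 to 0.08) with TRAM2-KO2. Within it the transcript PTGES3-207 was given 391 and 482 reads in TRAM2-KO1 B and C against 1197 to 1899 reads in the other 7 libraries, and the same libraries stand apart here too.

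ABCC4, the exporter (chromosome 13, 95672089 to 95953729), stood at 39.2, 39.1 and 40.1 CPM in controls, 41.4, 42.1 and 43.4 CPM in TRAM2-KO1 and 39.2, 38.3 and 41.0 CPM in TRAM2-KO2. TRAM2-KO1 lay above controls without overlap, but its difference of 0.10 (interval 0.01 to 0.19) did not pass (adjusted p = 0.228), and that of TRAM2-KO2 was 0.00 (interval -0.09 to 0.09). HPGD (chromosome 4, 175411326 to 175444305), which inactivates PGE2, had 0 or 1 read in each library and was not tested. A count of 0 allows up to 3 reads, or 0.111 to 0.140 CPM, so a difference in HPGD below about that level was not detectable at this depth.

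Among the receptors, PTGER4 rose with TRAM2-KO2. PTGER4 (ENSG00000171522, chromosome 5, 40680017 to 40693837) measured 14.7, 14.3 and 13.5 CPM in the controls, 15.7, 15.8 and 18.3 CPM in TRAM2-KO1 and 19.2, 19.6 and 20.0 CPM in TRAM2-KO2. The 3 groups did not overlap in CPM. In TPM, TRAM2-KO1 (6.63, 8.12 and 10.6) overlapped both the controls (6.80, 7.81 and 6.47) and TRAM2-KO2 (8.17, 8.37 and 10.6). The rise with TRAM2-KO2 was 0.47 on the log2 scale (SE 0.0701, interval 0.31 to 0.62, edgeR adjusted p = 0.00352), or 38.3%, under the 0.5 that the study set as its limit. It passed in 20 of 21 settings and was lost with transcript length offsets, where the value was 0.35 (adjusted p = 0.529). With TRAM2-KO1 the difference was 0.23 (SE 0.0712, adjusted p = 0.127), and without TRAM2-KO1 A it was 0.27 (adjusted p = 0.0447). TRAM2-KO2 and TRAM2-KO1 differed by 0.24 (SE 0.0691, adjusted p = 0.107). PTGER2, the other receptor of this kind (chromosome 14, 52781023 to 52795316), had 16 to 32 reads per library. It stood at 0.857, 1.07 and 1.27 CPM in controls, at 1.18, 1.11 and 0.623 CPM in TRAM2-KO1 and at 0.747, 1.23 and 0.948 CPM in TRAM2-KO2. The groups overlapped, and the intervals of its differences, -0.79 to 0.52 and -0.78 to 0.52, leave both a rise and a fall possible.

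Counted over the 8 tested members without PTGS2, 0 passed with TRAM2-KO1, against 2.91% of all genes tested in either direction and 0.753% higher. At an unadjusted p under 0.05 there were 3 (PTGES, PTGER4 and ABCC4), and DESeq2 also called 0. With TRAM2-KO2, 2 of 8 passed, both higher, against 4.22% of all genes in either direction and 1.73% higher. Between the guides 1 of 8 passed, against 2.27% of all genes, or 1.41% higher. The groups stood above controls without overlap for 3 members with TRAM2-KO1, against 11.9% of all genes, and for 2 with TRAM2-KO2, against 11.3%. TRAM2-KO2 stood above TRAM2-KO1 without overlap for 2 members, against 9.51%. The median log2 difference of the 8 members was 0.10 with TRAM2-KO1 and 0.06 with TRAM2-KO2, beside 0.01 and -0.00 over all genes. Without TRAM2-KO1 A the count with TRAM2-KO1 was 2 (PTGES2 lower, PTGER4 higher) and that between the guides 2, and without TRAM2-KO1 C, TRAM2-KO2 A or TRAM2-KO2 B the latter was 0. Both contrasts share the 3 control libraries, so they are not independent of each other. The members were chosen with earlier results of these data known, so their counts beside all genes are a description and do not test the pathway.

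**Figure D3:**
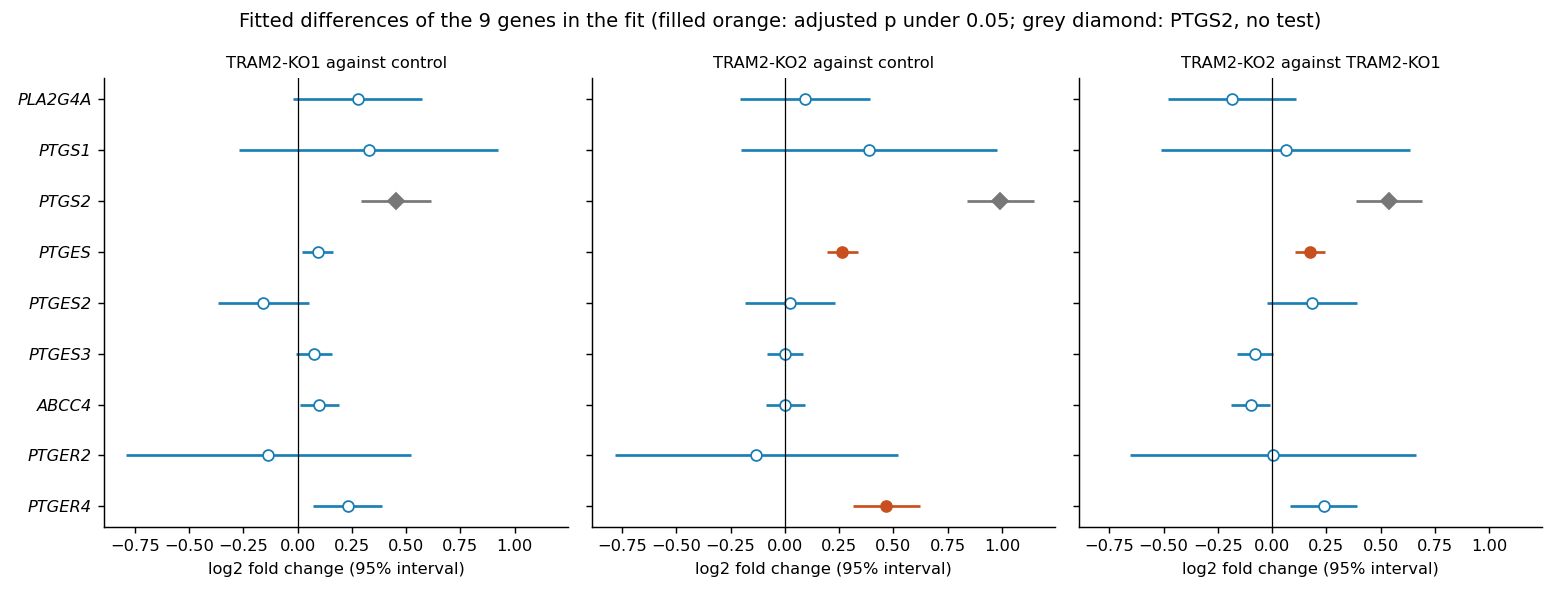
Fitted log2 fold changes of 9 genes (rows) with 95% intervals, in 3 panels (each guide against control, then the guides against each other), with filled orange points for an adjusted p under 0.05 and grey diamonds for PTGS2, which was not tested. PTGES (0.26) and PTGER4 (0.47) are filled in the middle panel, and the intervals of PTGS1 and PTGER2 are the widest.

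Between genes, levels were compared per length, in TPM. In controls PTGES3 stood at 325 ± 6.96 TPM (SD, n = 3), PTGES at 136 ± 0.225, PTGES2 at 49.1 ± 2.16, PTGS2 at 9.52 ± 1.14, ABCC4 at 8.59 ± 1.10 and PTGER4 at 7.03 ± 0.700 TPM. PLA2G4A followed at 1.44 ± 0.182 TPM, PTGER2 at 0.533 ± 0.108, PTGS1 at 0.264 ± 0.0218 and HPGD at 0.0358 ± 0.0619 TPM. Among neighbours in this order only PTGS2 and ABCC4 overlapped in their libraries. Counting coding transcripts alone, PTGS2 fell to 5.27 TPM and ABCC4 to 7.52 TPM, which turns that pair. In TRAM2-KO2 the mean of PTGS2 was 18.5 TPM against 10.8 TPM for ABCC4. The terminal synthase thus stood far above the cyclooxygenase in these cells: PTGS2 was 0.0612 to 0.0781 of PTGES in controls, 0.0768 to 0.0933 in TRAM2-KO1 and 0.104 to 0.127 in TRAM2-KO2, all in TPM. PTGER4 stood at 10.1 to 15.995 times PTGER2 in controls, 11.5 to 34.6 times in TRAM2-KO1 and 13.1 to 22.2 times in TRAM2-KO2, so these ratios overlapped.

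The next question was what happened in the rest of the pathway. Lists of 105 further genes covered arachidonate release and supply, the other prostanoid synthases and receptors, prostaglandin transport and breakdown, the lipoxygenase route, factors that control PTGS2 transcription or mRNA decay, inducers of PTGS2, and cAMP response genes, and 80 of them were tested. With TRAM2-KO1 6 rose and 5 fell, together 13.8% of the 80, against 2.91% of all genes tested. With TRAM2-KO2 7 rose and 4 fell, again 13.8%, against 4.22% of all genes, and between the guides 4 were higher and 1 was lower in TRAM2-KO2 (2.27% of all genes passed). The lists were chosen with earlier results of these data known, so these shares beside all genes are a description and do not test the pathway. The median of the 80 was 0.02 with TRAM2-KO1 and 0.01 with TRAM2-KO2. The TRAM2-KO1 count hung on every library: leaving out control A, B or C gave 3, 2 or 2 genes, leaving out TRAM2-KO1 A, B or C gave 21, 4 or 4, and leaving out TRAM2-KO2 A, B or C gave 6, 5 or 4. The TRAM2-KO2 count moved less, to 7, 7 or 8, to 14, 17 or 12, and to 8, 9 or 7 in the same order. Between the guides it was 14 and 3 without TRAM2-KO1 A and C, and 1, 2 and 3 without TRAM2-KO2 A, B and C.

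**Figure D4:**
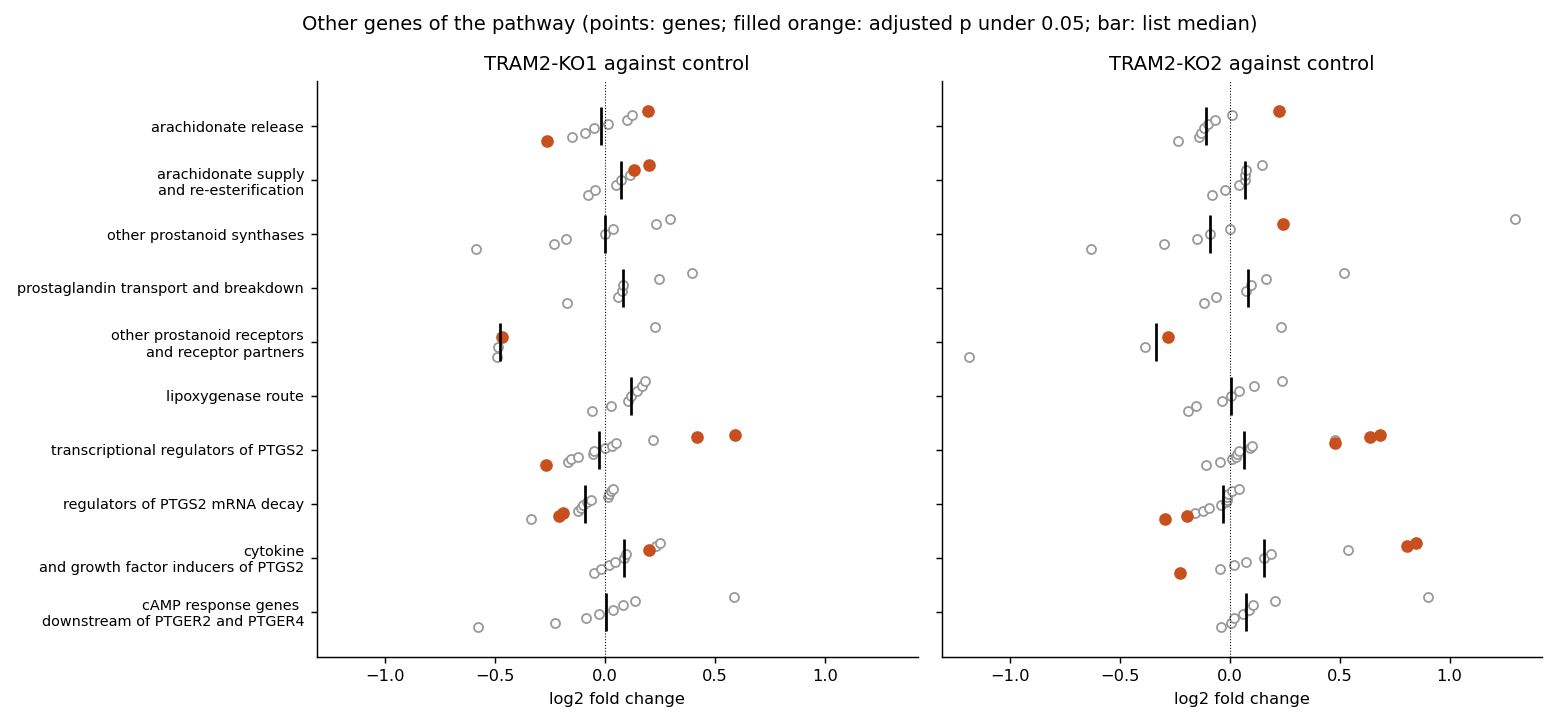
Log2 fold changes of the 80 tested genes of the pathway lists, 1 point per gene, in TRAM2-KO1 (left) and TRAM2-KO2 (right) against control, with filled orange points for an adjusted p under 0.05 and a bar at each list's median. Most points lie near 0, and the filled points furthest right are EREG, IL1RN, NFKBIA and ATF3 in TRAM2-KO2.

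Of 12 tested factors that act on PTGS2 transcription, 2 rose and 1 fell with TRAM2-KO1 (2.91% of all genes passed), and 3 rose with TRAM2-KO2 (4.22%). The list's median was -0.03 with TRAM2-KO1 and 0.07 with TRAM2-KO2. EGR1, an immediate early factor induced by growth factors, stood at 63.7, 66.7 and 67.0 CPM in controls, 108, 85.2 and 104 CPM in TRAM2-KO1 and 84.6, 91.1 and 99.2 CPM in TRAM2-KO2. The rises were 0.59 (SE 0.0837) with TRAM2-KO1 and 0.48 (SE 0.0837) with TRAM2-KO2 (adjusted p = 0.00308 and 0.00909), above the controls in all 6 knockout libraries, and passed in 21 and 20 of 21 settings, the TRAM2-KO2 call being lost without control A (adjusted p = 0.0627). ATF3, a stress-induced factor that binds cAMP response elements, stood at 8.49, 7.42 and 7.09 CPM in controls, 10.4, 10.8 and 9.65 CPM in TRAM2-KO1 and 10.9, 12.1 and 12.7 CPM in TRAM2-KO2. Its rise was 0.42 with TRAM2-KO1 (adjusted p = 0.0384, passed in 9 of 21 settings, lost without any one of control B or C, or B or C of either knockout) and 0.64 with TRAM2-KO2 (adjusted p = 0.00267, passed in 21). NFKBIA, which holds NF-kB in the cytoplasm and is itself switched on by it, stood at 25.5, 23.3 and 26.2 CPM in controls, 28.1, 28.9 and 30.2 CPM in TRAM2-KO1 and 40.4, 36.7 and 43.5 CPM in TRAM2-KO2. Its groups did not overlap, in the same order as those of PTGS2. NFKBIA rose by 0.68 with TRAM2-KO2 (SE 0.0690, adjusted p = 0.000299), while its 0.22 with TRAM2-KO1 did not pass (adjusted p = 0.144), and the difference of 0.47 between the guides did (adjusted p = 0.00716). CEBPB, whose protein binds C/EBP sites, fell by 0.27 with TRAM2-KO1 (adjusted p = 0.0377), a call that held in 4 of 21 settings and was 0.02 with the GC trend removed. Its value in TRAM2-KO2 was -0.05.

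Of 12 tested genes that act on the decay of PTGS2 mRNA, 2 fell with each guide and 0 rose, beside the 2.91% and 4.22% of all genes that passed in either direction. ZFP36L1 and ZFP36L2 bind AU-rich elements and speed mRNA decay. ZFP36L2 stood at 255, 248 and 254 CPM in controls, 230, 219 and 214 CPM in TRAM2-KO1 and 214, 235 and 213 CPM in TRAM2-KO2, a fall of 0.19 with both guides (adjusted p = 0.0435 and 0.0318), which passed in 8 and 14 of 21 settings. ZFP36L1 fell by 0.21 with TRAM2-KO1 (adjusted p = 0.0219, passed in 13 of 21 settings), and its value with TRAM2-KO2 was -0.16 (adjusted p = 0.0645). With TRAM2-KO1 the ZFP36L1 value was -0.10 with the GC trend removed (adjusted p = 0.216) and -0.35 with coding transcripts (adjusted p = 0.0951). DUSP1, the phosphatase that switches off p38 and thereby shortens the life of PTGS2 mRNA, fell by 0.29 with TRAM2-KO2 (SE 0.0358, adjusted p = 0.00101), from 232, 240 and 233 CPM to 189, 195 and 191 CPM, and passed in all 21 settings. In TRAM2-KO1 DUSP1 stood at 223, 207 and 224 CPM (-0.11, adjusted p = 0.146), below controls and above TRAM2-KO2. The calls of ZFP36L2 were lost without any one of control A, B or C.

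Inducers of PTGS2 among cytokines and growth factors gave 1 rise of 9 tested with TRAM2-KO1, and 2 rises and 1 fall with TRAM2-KO2, where 2.91% and 4.22% of all genes passed. EREG, epiregulin, a ligand of the EGF receptor, stood at 2.45, 2.87 and 2.62 CPM in controls, 3.09, 3.05 and 2.30 CPM in TRAM2-KO1 and 4.56, 4.51 and 5.25 CPM in TRAM2-KO2. It rose by 0.85 with TRAM2-KO2 (SE 0.141, adjusted p = 0.00663) and was higher there than in TRAM2-KO1 by 0.76 (SE 0.140, adjusted p = 0.0230), passing in 19 of 20 and 12 of 19 settings. The second call was lost without TRAM2-KO1 C or any one TRAM2-KO2 library. TRAM2-KO1 overlapped the controls. IL1RN, the antagonist of the interleukin-1 receptor and so an inhibitor in this list, had 29 to 67 reads per library and rose by 0.80 with TRAM2-KO2 (SE 0.188, adjusted p = 0.0395), from 1.47, 1.19 and 1.60 CPM to 2.46, 2.65 and 2.33 CPM. IL1R1, the receptor itself, fell by 0.22 with TRAM2-KO2 (adjusted p = 0.0413), from 34.1, 34.8 and 34.4 CPM to 29.7, 28.6 and 30.1 CPM. IL1RN passed in 10 of 20 settings and IL1R1 in 9 of 21, and both calls were lost without any one of control A, B or C or TRAM2-KO2 A, B or C. HBEGF, another ligand of the EGF receptor, rose by 0.20 with TRAM2-KO1 (adjusted p = 0.0490, passed in 5 of 21 settings) and stood 0.19 above controls with TRAM2-KO2 (adjusted p = 0.0516).

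In the supply of arachidonate, PLA2G15, a lysosomal phospholipase A2, fell by 0.26 with TRAM2-KO1 (adjusted p = 0.0211), from 22.3, 23.0 and 23.5 CPM to 18.7, 18.9 and 19.8 CPM, but had -0.15 with the GC trend removed (adjusted p = 0.241) and -0.11 with length offsets (adjusted p = 0.707). PLA2G12A, a secreted phospholipase A2, rose by 0.20 with TRAM2-KO1 (adjusted p = 0.0305) and 0.23 with TRAM2-KO2 (adjusted p = 0.0117), but its TPM ran from 12.1 to 76.6 over the 9 libraries while its CPM ran from 24.4 to 29.2, and with transcript length offsets the first value became -1.04. ELOVL5, an elongase of polyunsaturated fatty acids, and LPCAT3, which puts arachidonate back into phospholipids, rose with TRAM2-KO1 by 0.13 (adjusted p = 0.0421) and 0.20 (adjusted p = 0.0464), and each passed in 8 of 21 settings. PLA2G15 passed in 11 and PLA2G12A in 6 and 16 of 21 settings. These 4 genes lost their TRAM2-KO1 call without any one of control A, B or C, as did CEBPB, ZFP36L1, ZFP36L2 and HBEGF. The TRAM2-KO2 call of PLA2G12A was lost without control A, control B or TRAM2-KO2 C. Beside the lists of this paragraph, 2.91% of all genes passed with TRAM2-KO1 and 4.22% with TRAM2-KO2. Of the 7 other prostanoid synthases tested, 0 passed with TRAM2-KO1 in edgeR or DESeq2 (2 at an unadjusted p under 0.05). With TRAM2-KO2 1 of the 7 passed, AKR1B1, which rose. AKR1B1, aldose reductase, which can also make prostaglandin F2, stood at 211, 218 and 214 CPM in controls, 222, 226 and 211 CPM in TRAM2-KO1 and 262, 253 and 246 CPM in TRAM2-KO2, a rise of 0.24 (SE 0.0350, adjusted p = 0.00278). That call passed in 20 of 21 settings and was lost with transcript length offsets (adjusted p = 0.0526). Of 4 other receptors and receptor partners, PTGFRN, a membrane partner of the prostaglandin F2 receptor, fell with both guides. It stood at 125, 127 and 130 CPM in controls, 91.7, 89.8 and 94.4 CPM in TRAM2-KO1 and 104, 108 and 102 CPM in TRAM2-KO2, falls of 0.47 (adjusted p = 4.85e-05) and 0.28 (adjusted p = 0.00102), each passing in 20 of 21 settings. Both calls were lost with transcript length offsets (adjusted p = 0.133 and 0.392). TRAM2-KO2 stood above TRAM2-KO1 by 0.19 for PTGFRN (adjusted p = 0.0244).

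Of 8 tested genes that answer the cAMP raised by PTGER2 and PTGER4, 0 rose and 0 fell with either guide in edgeR. Over all genes 2.91% passed with TRAM2-KO1 and 4.22% with TRAM2-KO2, so 0 among 8 lies near that share. At an unadjusted p under 0.05 there were 3 with TRAM2-KO1 and 1 with TRAM2-KO2. The median was 0.01 with TRAM2-KO1 and 0.07 with TRAM2-KO2. DESeq2 called 1 of them with TRAM2-KO1 and 0 with TRAM2-KO2. That gene, PDE4D, a phosphodiesterase that breaks down cAMP, had -0.58 in edgeR with TRAM2-KO1 (adjusted p = 0.0768) and 0.06 with TRAM2-KO2, and is named after its values were seen. NR4A3, chosen after its values were seen as the gene furthest from 0, had 0.90 with TRAM2-KO2 (adjusted p = 0.168). For the lipoxygenase route, which also uses arachidonate, 0 of 7 tested genes passed with either guide in edgeR or DESeq2 (1 at an unadjusted p under 0.05 in each contrast). For prostaglandin transport and breakdown 0 of 6 passed in either tool, with 3 at an unadjusted p under 0.05 with TRAM2-KO1 and 2 with TRAM2-KO2. These counts of 0 also lie near the shares of all genes that passed.

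Lastly, the pattern of PTGS2 over the 9 libraries was compared with that of 10385 genes of at least 5 CPM on average, by Pearson's r of log2 CPM, as a description. Among the 8 most alike were PYROXD1 (r = 0.981), KIF23, TPX2, GJA5, CCNB2, ERRFI1 and SLC39A8 (r = 0.973). KIF23 and TPX2 act at the mitotic spindle, CCNB2 is cyclin B2, and ERRFI1 is a feedback inhibitor of the EGF receptor. These genes stepped less than PTGS2, ERRFI1 for example from a mean of 147 CPM in controls to 178 CPM in TRAM2-KO1 and 199 CPM in TRAM2-KO2. Among the 4 most opposite were PLAT, tissue plasminogen activator, EDIL3 and DCN, the matrix proteoglycan decorin (r = -0.970), which went from 41.6 CPM in controls to 29.4 and 18.5 CPM. Of the genes compared, 0.751% had an r above 0.9 and 0.568% an r below -0.9. Among members, r was 0.966 for PTGER4, 0.929 for PTGES and 0.485 for PTGS1, and between -0.266 and 0.304 for the other 5. The 9 points fall in 3 groups, so r includes the differences between the groups. With Spearman's rho 3 of the 12 genes stayed among the most alike and opposite, and with deviations from the group means 0 of them did.

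**Figure D5:**
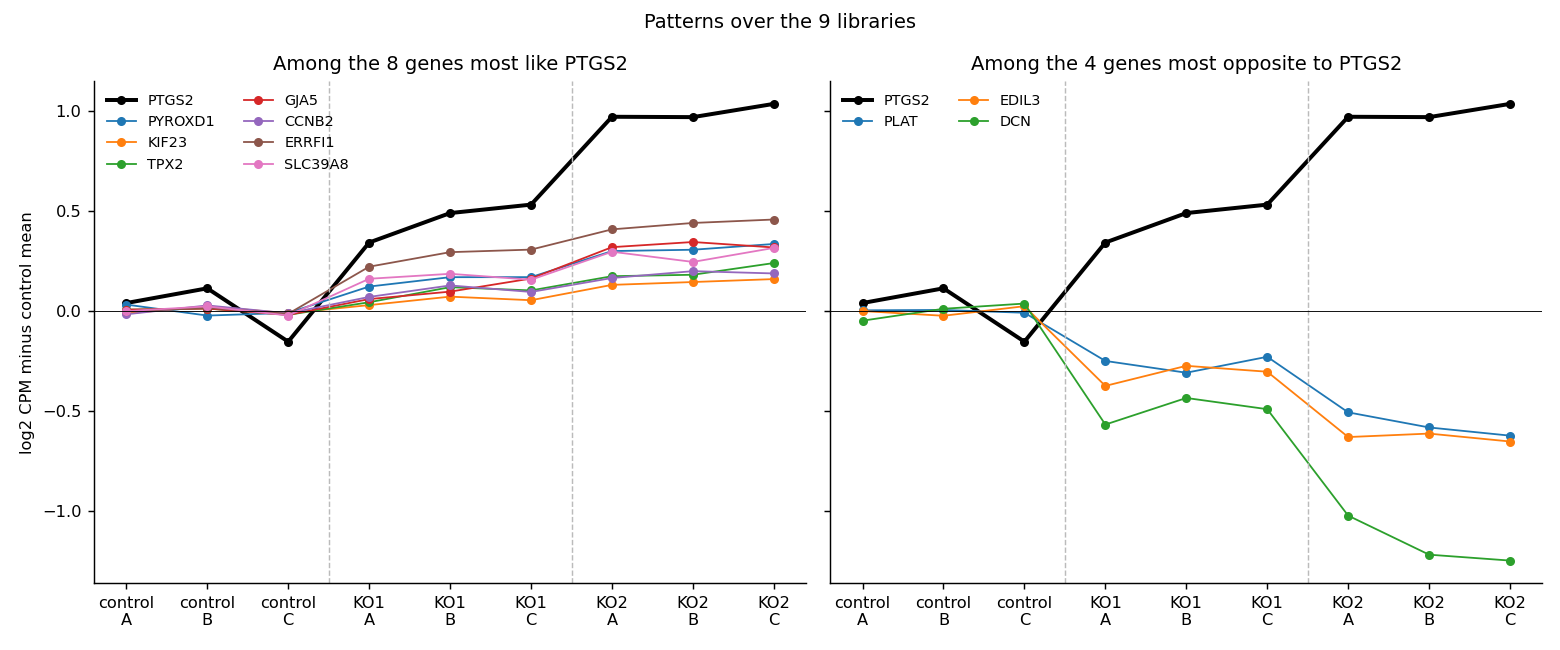
Log2 CPM minus the control mean in each library (horizontal axis, dashed lines between groups) for PTGS2 in black beside genes among the 8 most like it (left) and the 4 most opposite (right), with lines that only join the points of a gene. PTGS2 steps further from its control mean than the genes like it that are drawn, and DCN steps down by about as much as PTGS2 steps up.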

How the data were processed

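The data were 9 poly(A)+ RNA libraries of MCF10A-YAP cells, 3 per group. The authors trimmed adapters by cutadapt and made the deposited estimated counts, without normalisation, per transcript by Salmon. Versions, transcript release and build were not given in the sources used here. Also deposited were TPM scaled over all transcripts of a library by the authors, and effective lengths. Here the estimated counts were summed per gene of GENCODE release 44 on GRCh37 (97.5% of 226030 transcripts and 98.4% to 98.5% of reads had a gene) and rounded. The prior count for log2 values was 2.

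Of 59293 genes, 15139 passed filterByExpr with a minimum of 10 reads. A quasi-likelihood model was fitted to all 9 libraries in edgeR 4.0.16 (R 4.3.3), with TMM factors and group as the term, 3 contrasts, two-sided tests and Benjamini-Hochberg adjustment over all genes tested. A gene passed, and rose or fell, at an adjusted p under 0.05. Adjusted p values are edgeR's. CPM are counts over the TMM-adjusted library size. The common biological coefficient of variation came to 5.86%. Intervals cover 95%, and they and the limit of 3 counts do not cover differences between rounds of editing. Nothing in the labels says how far cultures of a group were kept apart, so p values measure the spread between these libraries, which may be technical.

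The members and lists were chosen with earlier results of these data known. From each list, at most 4 genes that passed with either guide were named, smallest p first. Genes like PTGS2 were the 8 highest and 4 lowest in Pearson's r, some of which, like 1 marker gene, are not reported here. Promoter sequences are from RefSeq on GRCh38.p14 and gene positions from GRCh37. The alternatives were DESeq2 1.42.0, other scalings and filters, 2-group fits, a replicate block, length offsets, GC correction, TRAM2-KO1 by library A, coding transcripts and leaving out each library. The fit was tested on simulated counts.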

Additional observations from a re-analysis of the deposited data

Results flagged for a closer look

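Differences between the guides, tested as TRAM2-KO2 against TRAM2-KO1 in edgeR, passed for 6 of the genes named here. Over all genes tested 2.27% passed. All of the 6 but PTGES were named because they passed against control, in contrasts that share the knockout libraries. The 6 are therefore a description and not a separate test. PTGES was higher in TRAM2-KO2 by 0.17 on the log2 scale, AKR1B1 by 0.21, PTGFRN by 0.19, NFKBIA by 0.47 and EREG by 0.76, and DUSP1 differed by -0.18 (adjusted p = 0.0281). In each case all 3 TRAM2-KO2 libraries lay on 1 side of all 3 TRAM2-KO1 libraries. Over all genes tested, TRAM2-KO2 stood above TRAM2-KO1 without overlap for 9.51%. Of the 21 alternative settings (19 for EREG), PTGES passed in 13, AKR1B1 in 16, PTGFRN in 15, NFKBIA in 19, DUSP1 in 11 and EREG in 12. Without TRAM2-KO2 A the calls of PTGES, AKR1B1, PTGFRN, DUSP1 and EREG were lost. TRAM2-KO2 A was not the only such library. DUSP1 also lost its call without any one of control A, B or C, TRAM2-KO1 C, or TRAM2-KO2 B or C. PTGFRN lost its call without TRAM2-KO1 B or TRAM2-KO2 B as well. Losses of PTGES and EREG without other libraries are given above.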

How the results depend on the processing

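PTGS2 kept its direction in every setting: leaving out 1 library at a time gave 0.376 to 0.510 with TRAM2-KO1, 0.923 to 1.05 with TRAM2-KO2 and 0.482 to 0.590 between the guides. Length offsets gave 0.35 with TRAM2-KO1, and TRAM2-KO1 by library A alone gave 0.34 with TRAM2-KO1 and 0.66 between the guides. Counts below are of members and of list genes that passed. Leave-one-out ranges for members were 0 to 2 with TRAM2-KO1, 2 to 2 with TRAM2-KO2 and 0 to 2 between the guides, and for list genes 2 to 21, 7 to 17 and 1 to 14. With TRAM2-KO1, where 0 members and 11 list genes passed, 1 member passed with the GC trend removed, with or without the block, and the list count was 3 with only the 2 groups compared, 2 with length offsets, 4 with the GC trend removed and the block, 4 by library A alone and 5 with coding transcripts. With TRAM2-KO2, where 2 and 11 passed, length offsets gave 1 and 4, and GC removal 17 list genes. Between the guides, where 1 and 5 passed, members fell to 0 with only the 2 groups, length offsets, GC removal with or without the block, and library A alone, and list genes to 1, 0 and 2 with only the 2 groups, length offsets and library A alone. The causes of these moves were not tested.

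Libraries that share a letter share only that letter in the labels: their deviations from group means correlated between -0.0881 and 0.107. With the letter as a replicate block the list count with TRAM2-KO1 was 7, other counts stayed within 1.5 times, and the PTGER2 difference between the guides turned to -0.0064.

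Directions turned as follows. PTGES3 with TRAM2-KO2 turned positive in DESeq2 (0.0036), with library size alone (0.0351), without a filter (0.0108), at 5 CPM (0.000616), with length offsets (0.0050), GC removal (0.0085), GC removal and the block (0.0086) and library A alone (0.000576), and ran from -0.0130 to 0.0146 in leave-one-out fits. ABCC4 with TRAM2-KO2 was -0.0010 with upper quartile factors and -0.0274 to 0.0265 in leave-one-out fits, and between the guides 0.0402 with length offsets. By library A alone, with TRAM2-KO1, PTGES2 was 0.0808 and PTGER2 0.14, and between the guides PTGS1 was -0.0370, PTGES2 -0.0549 and PTGER2 -0.27. Leave-one-out fits gave PTGER2 -0.313 to 0.0967, -0.323 to 0.0279 and -0.226 to 0.182 in the 3 contrasts, PLA2G4A with TRAM2-KO2 -0.000797 to 0.192, and PTGS1 between the guides -0.0026 to 0.121. 2 calls turned with TRAM2-KO1: PLA2G12A, 0.20 in the edgeR fit, was -1.04 with length offsets, and CEBPB, -0.27 in that fit, was 0.0178 with GC removal and 0.0181 with GC removal and the block. Depth limits PTGS1, PTGER2 and HPGD.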
